A study of Homo sapiens with 12 samples.

Results

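Laminins are the main cell-binding glycoproteins of basement membranes, the thin sheets of extracellular matrix under epithelia and around muscle fibres. The 9 laminin chain genes described here were taken by symbol: the alpha chains LAMA1, LAMA2, LAMA3, LAMA4 and LAMA5, the beta chains LAMB1, LAMB2 and LAMB3, and the gamma chain LAMC1. Each matched 1 of the 61552 gene identifiers in the count tables, and all 9 had counts high enough to be tested. They were measured in poly-A RNA of the human RD line, long grown in culture and derived from embryonal rhabdomyosarcoma, a cancer with traits of developing muscle; the labels mark it as FN-RMS. Both groups carried a small interfering RNA (siRNA) delivered with Lipofectamine RNAiMAX. One received EHMT1-specific siRNA (n = 3 libraries) and the other scrambled siRNA (n = 3 libraries), and RNA was taken after 48 h. The EHMT1 protein (GLP) methylates lysine 9 of histone H3, a mark of silenced chromatin. The labels name a single cell line and a single EHMT1 siRNA, so loss of EHMT1 and other effects of that siRNA cannot be told apart. The SOX8 siRNA libraries of the series were not analysed here.

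A laminin is secreted as a trimer of 1 alpha, 1 beta and 1 gamma chain, joined in a long coiled coil, and its name follows the chains it holds. The short arms link trimers into a network, and the end of the alpha chain binds integrins and dystroglycan on the cell surface. In skeletal muscle the trimer with the alpha 2 chain predominates in the sheath of the fibre, and mutation of LAMA2 causes a congenital muscular dystrophy. The alpha 3 and beta 3 chains are best known from skin, where their trimer anchors basal keratinocytes.

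Levels are given in CPM, counts scaled to the size of the library with TMM factors. The libraries held 40639655 to 42098426 gene counts with EHMT1 siRNA and 41095515 to 47258481 with scrambled siRNA. EHMT1 itself (ENSG00000181090) lay at 53.2, 54.4 and 57.6 CPM in EHMT1 siRNA libraries, against 130.9, 155.9 and 130.1 CPM in scrambled libraries, so the target was lower wherever the label says so. Among the markers of the cell line, MYOD1, MYOG, DES, CHRNA1 and CDH15 were present in every library at 41.9 CPM or more, while MYF5 had no count in any library and MYF6 lay at 0.107 CPM or less. Libraries within a group differed beyond sampling noise: chi-square divided by its degrees of freedom was 2.80 to 3.12 for pairs of EHMT1 siRNA libraries and 8.05 to 18.7 for pairs of scrambled libraries. Scrambled replicate 2 lay furthest out on the first principal component.

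The promoters of the 2 chains that differed between the groups, LAMB3 and LAMA2, are printed first, beside those of the 2 most abundant chains, LAMB1 and LAMC1, as the DNA next to a start site of each gene. Each window runs from 250 bases before to 50 bases after an annotated start in RefSeq (GRCh38.p14), 5′ to 3′ on the gene's own strand, and capitals mark CG dinucleotides (CpG).
LAMB3 (minus strand, chr1:209652376-209652675): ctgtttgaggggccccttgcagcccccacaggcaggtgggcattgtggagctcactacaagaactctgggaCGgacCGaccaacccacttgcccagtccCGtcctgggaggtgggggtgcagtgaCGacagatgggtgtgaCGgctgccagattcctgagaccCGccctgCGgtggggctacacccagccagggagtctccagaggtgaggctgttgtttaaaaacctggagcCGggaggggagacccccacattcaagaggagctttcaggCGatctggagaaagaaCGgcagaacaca
LAMA2 (plus strand, chr6:128882888-128883187): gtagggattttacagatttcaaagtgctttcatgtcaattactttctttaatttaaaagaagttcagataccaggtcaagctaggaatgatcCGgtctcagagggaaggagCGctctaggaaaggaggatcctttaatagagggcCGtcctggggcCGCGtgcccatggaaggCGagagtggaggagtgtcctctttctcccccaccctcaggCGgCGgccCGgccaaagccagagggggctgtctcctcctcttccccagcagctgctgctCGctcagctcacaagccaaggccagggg
LAMB1 (minus strand, chr7:108003112-108003411): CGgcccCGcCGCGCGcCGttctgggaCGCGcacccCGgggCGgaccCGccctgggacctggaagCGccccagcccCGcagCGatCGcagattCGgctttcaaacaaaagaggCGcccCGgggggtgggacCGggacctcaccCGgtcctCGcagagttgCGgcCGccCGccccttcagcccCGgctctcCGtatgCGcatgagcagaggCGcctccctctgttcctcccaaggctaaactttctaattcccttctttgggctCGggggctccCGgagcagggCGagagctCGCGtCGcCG
LAMC1 (plus strand, chr1:183023170-183023469): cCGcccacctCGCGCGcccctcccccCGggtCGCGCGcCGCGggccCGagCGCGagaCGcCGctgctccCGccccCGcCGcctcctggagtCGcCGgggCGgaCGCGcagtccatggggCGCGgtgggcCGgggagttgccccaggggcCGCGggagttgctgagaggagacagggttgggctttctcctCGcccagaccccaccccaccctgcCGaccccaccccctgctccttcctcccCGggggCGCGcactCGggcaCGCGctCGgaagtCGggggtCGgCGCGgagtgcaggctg
LAMB3 and LAMA2 held 10 CpG each in these windows, and LAMB1 and LAMC1 held 35 and 41. The median of the 35116 windows of this length in the table was 14. LAMB3 has 3 annotated starts in the table, with 10, 11 and 3 CpG, and counts per gene do not show which of them was used. Of the 8 members with a window, LAMA5 had 41 CpG, LAMB2 15, LAMA3 13 and LAMA4 8, so the members spanned CpG-rich and CpG-poor promoters. The motif TGANTCA, the letters bound by AP-1 factors, was searched on both strands. It occurred once in the third LAMB3 window and 2 times in that of LAMA3, and in no other member's window; 7.71% of all windows held it. The letters CANNTG of the E-box, which muscle regulators such as MYOD1 bind, occurred 3 times in the LAMB3 window printed, 1 time in that of LAMA2 and in neither LAMB1 nor LAMC1, against 68.7% of all windows with at least 1. These are matches of letters only.

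RD cells expressed a laminin set built around 1 beta and 1 gamma chain. Levels of different genes were compared as CPM per kilobase of annotated exon, because long genes collect more counts. LAMC1, the gamma chain of most laminins, averaged 158.1 ± 2.84 CPM per kilobase in EHMT1 siRNA libraries and 146.5 ± 4.34 in scrambled libraries (SD, n = 3 each). LAMB1, the most widespread beta chain, averaged 150.0 ± 2.94 CPM per kilobase with EHMT1 siRNA and 148.2 ± 5.38 with scrambled siRNA. Over all 6 libraries the ranges of these 2 chains overlapped, so their order is not resolved. The next chain, LAMA4, lay 4.90 times below LAMB1, with no overlap of ranges.

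Among the alpha chains LAMA4, known from blood vessels and mesenchyme, was the most abundant. It averaged 30.6 ± 1.26 CPM per kilobase with EHMT1 siRNA and 30.2 ± 0.889 with scrambled siRNA (SD, n = 3 each). LAMA2 averaged 14.9 ± 0.559 and 12.8 ± 0.109 CPM per kilobase in EHMT1 siRNA and scrambled libraries, and LAMA5, an alpha chain of epithelia and vessels, 12.02 ± 0.969 and 12.4 ± 2.20. The ranges of LAMA2 and LAMA5 overlapped over the 6 libraries in the unstranded counts, so these neighbours are not resolved there either. In the counts of the strand that held most reads, LAMA2 made up at least 24.4% of the alpha chains per kilobase in every library. LAMA5 made up at most 22.2%, so the order depends on the counts used. LAMB2, the beta chain concentrated at neuromuscular junctions and in the kidney filter, lay between LAMA4 and LAMA2 at 20.5 ± 0.594 CPM per kilobase with EHMT1 siRNA and 19.1 ± 0.870 with scrambled siRNA. LAMB3 followed at 2.32 ± 0.224 with EHMT1 siRNA and 1.38 ± 0.0770 with scrambled siRNA. LAMA1, a chain of embryonic basement membranes, and LAMA3 were the lowest, at 0.0520 to 0.0916 and 0.00967 to 0.0296 CPM per kilobase over all 6 libraries. The 5 alpha chains together summed to 57.6 ± 2.51 CPM per kilobase with EHMT1 siRNA and 55.5 ± 3.03 with scrambled siRNA, well below LAMB1 or LAMC1 alone.

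**Figure D1:**
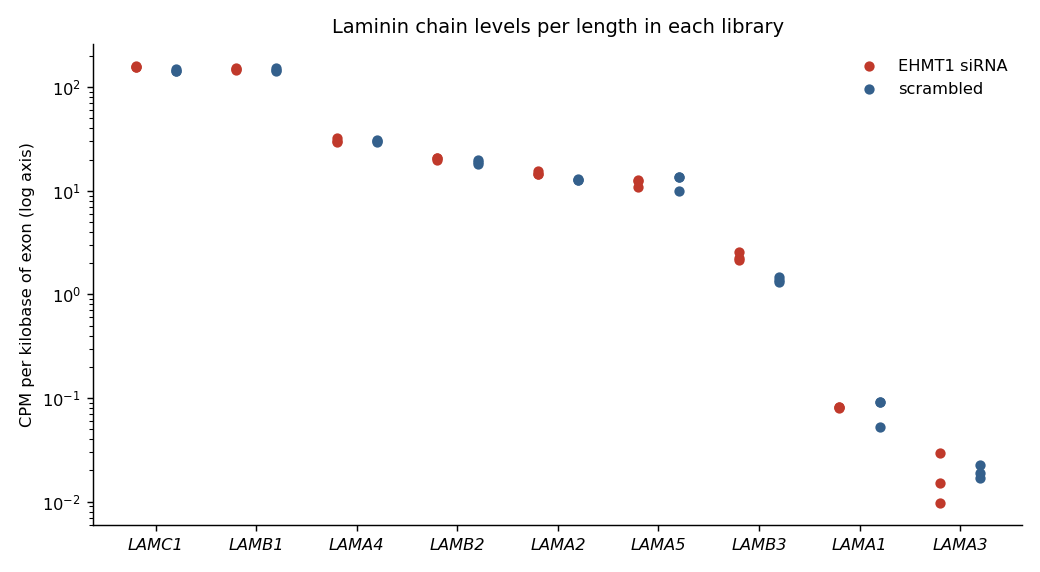
Level of each laminin chain in CPM per kilobase of exon on a log axis, with 1 point per library, EHMT1 siRNA (red) left of scrambled (blue). LAMC1 and LAMB1 lie at 143.2 to 160.9, LAMA3 lies lowest, and LAMB3 is the chain whose groups are furthest apart in ratio.

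EHMT1 siRNA was compared with scrambled siRNA for each chain. LAMB3 and LAMA2 rose, and the 7 other chains did not pass the test. No chain fell, by edgeR (0 at an unadjusted p under 0.05), DESeq2 or limma-voom. A call means an adjusted p under 0.05 in edgeR's quasi-likelihood test over all 18646 genes tested. Of all genes tested, 5.81% rose and 6.54% fell (12.4% in either direction), and at that share about 1 of 9 chains would be called, so the count of 2 is near the background. The median log2 fold change of the 9 chains was 0.05, and that of all genes tested 0.00. The groups of libraries did not overlap for LAMB3, LAMA2 and LAMC1, 3 of 9 chains, against 30.9% of all genes tested.

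LAMB3 (ENSG00000196878, chromosome 1), the beta chain of the skin-anchoring laminin, had the largest change. It lay at 10.6, 12.1 and 10.0 CPM in EHMT1 siRNA replicates 1 to 3, against 6.43, 6.11 and 6.83 CPM in scrambled replicates 1 to 3. All EHMT1 siRNA libraries were above all scrambled libraries, and the gap between groups was wider than the range within either. These levels rested on 410 to 500 counts per EHMT1 siRNA library and 244 to 301 counts per scrambled library. LAMB3 rose by 0.75 on the log2 scale (SE 0.10, adjusted p = 0.000162 in edgeR), a 1.69-fold rise with a 95% interval of 1.45 to 1.96. It ranked 134 among all genes tested by p. In bulk RNA, more cells with the transcript and more transcript per cell cannot be told apart.

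LAMA2 (ENSG00000196569, chromosome 6), the muscle alpha chain, had a smaller rise at a higher level. It lay at 150.3, 160.8 and 151.2 CPM in EHMT1 siRNA libraries, against 131.9, 133.5 and 131.3 CPM in scrambled libraries. The scrambled libraries were tightly grouped and all lay below the lowest EHMT1 siRNA library. LAMA2 rose by 0.22 on the log2 scale (SE 0.055, adjusted p = 0.0137 in edgeR), that is by 16.5%, with a 95% interval of 1.08-fold to 1.26-fold. LAMA2 no longer passed when EHMT1 siRNA replicate 1, 2 or 3 was left out (adjusted p = 0.0570, 0.133 and 0.0640 in edgeR), while the log2 fold change stayed at 0.19 to 0.24. For LAMB3, LAMA2 and LAMC1 the two-sided exact permutation p over libraries was 0.1, the smallest that 3 against 3 libraries allow.

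**Figure D2:**
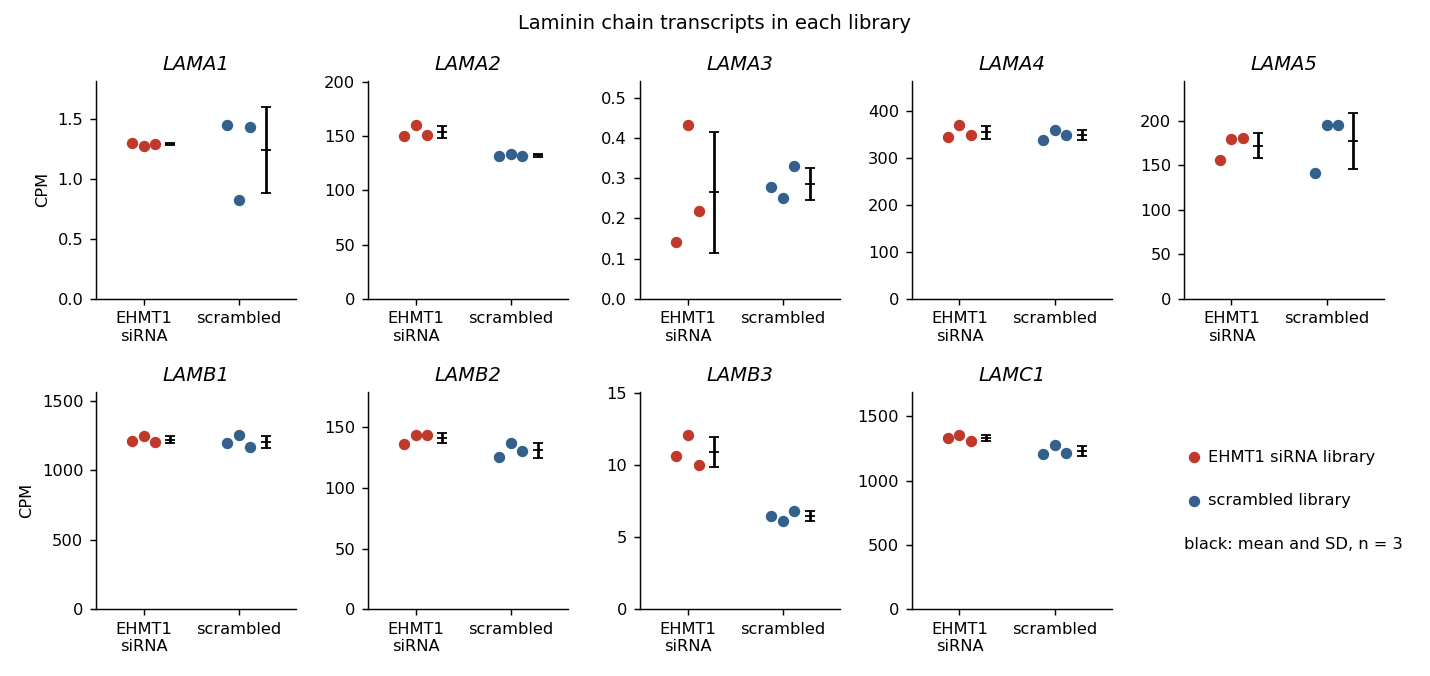
CPM of the 9 laminin chains in each library, EHMT1 siRNA (red) left of scrambled (blue), with the mean and SD of each group (n = 3) in black; every vertical axis starts at 0. LAMB3 at 10.0 to 12.1 CPM with EHMT1 siRNA lies above 6.11 to 6.83 CPM with scrambled siRNA, and LAMA5 shows 1 scrambled library below the other 2.

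LAMC1 (ENSG00000135862, chromosome 1) lay at 1328, 1353 and 1305 CPM in EHMT1 siRNA libraries, against 1207, 1273 and 1214 CPM in scrambled libraries. The groups did not overlap, but the difference did not pass the test: the log2 fold change was 0.11 (95% interval -0.01 to 0.23, edgeR adjusted p = 0.224). LAMB2 (ENSG00000172037, chromosome 3) was similar, at 136.2, 143.4 and 143.3 CPM in EHMT1 siRNA libraries, against 125.4, 137.3 and 130.1 CPM in scrambled libraries. The highest scrambled library of LAMB2 reached above the lowest EHMT1 siRNA library. Its log2 fold change was 0.11 (95% interval -0.01 to 0.23, edgeR adjusted p = 0.258). Without scrambled replicate 2, the library that lay furthest out, both passed, LAMC1 at 0.13 (edgeR adjusted p = 0.0450) and LAMB2 at 0.14 (edgeR adjusted p = 0.0477).

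LAMB1 (ENSG00000091136, chromosome 7) lay at 1211, 1249 and 1205 CPM in EHMT1 siRNA libraries, against 1199, 1253 and 1166 CPM in scrambled libraries. The groups overlapped, and the log2 fold change was 0.02, with a 95% interval of -0.10 to 0.14. LAMA4 (ENSG00000112769, chromosome 6) lay at 343.8, 371.0 and 348.6 CPM in EHMT1 siRNA libraries, against 339.0, 359.6 and 349.6 CPM in scrambled libraries. Here too the groups overlapped, and the log2 fold change of 0.02 had an interval of -0.10 to 0.14.

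LAMA5 (ENSG00000130702, chromosome 20) was the abundant chain with the widest spread. It lay at 155.8, 179.2 and 180.3 CPM in EHMT1 siRNA libraries, against 140.9, 195.1 and 195.6 CPM in scrambled libraries. Replicate 1 was the lowest library of both groups, and scrambled replicate 1 was lowest of all. The log2 fold change was -0.04 (95% interval -0.27 to 0.18, edgeR adjusted p = 0.839), and it was -0.19 without scrambled replicate 1 (edgeR adjusted p = 0.0777). LAMA5 also shared 244 exon bases with ADRM1, a proteasome subunit gene on the opposite strand. Of its strand-resolved counts, 38.1% were in the strand column opposite to the gene, against 4.46% to 10.7% for the other 8 chains. The 2 strand columns together held 56.6% more LAMA5 counts than the unstranded column. In the strand column that held most counts, LAMA5 was again at -0.04.

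LAMA1 (ENSG00000101680, chromosome 18) lay at 1.30, 1.28 and 1.29 CPM in EHMT1 siRNA libraries, against 1.45, 0.826 and 1.44 CPM in scrambled libraries. LAMA3 (ENSG00000053747, chromosome 18), the alpha partner of LAMB3 in the skin-anchoring trimer, lay at 0.142, 0.434 and 0.220 CPM in EHMT1 siRNA libraries, against 0.278, 0.250 and 0.330 CPM in scrambled libraries. For both, the groups overlapped. LAMA3 rested on 6 to 18 counts per EHMT1 siRNA library and 10 to 14 per scrambled library, a depth at which its interval stayed wide in both directions. The log2 fold change was -0.11 (95% interval -1.12 to 0.90) for LAMA3 and 0.05 (-0.46 to 0.56) for LAMA1.

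**Figure D3:**
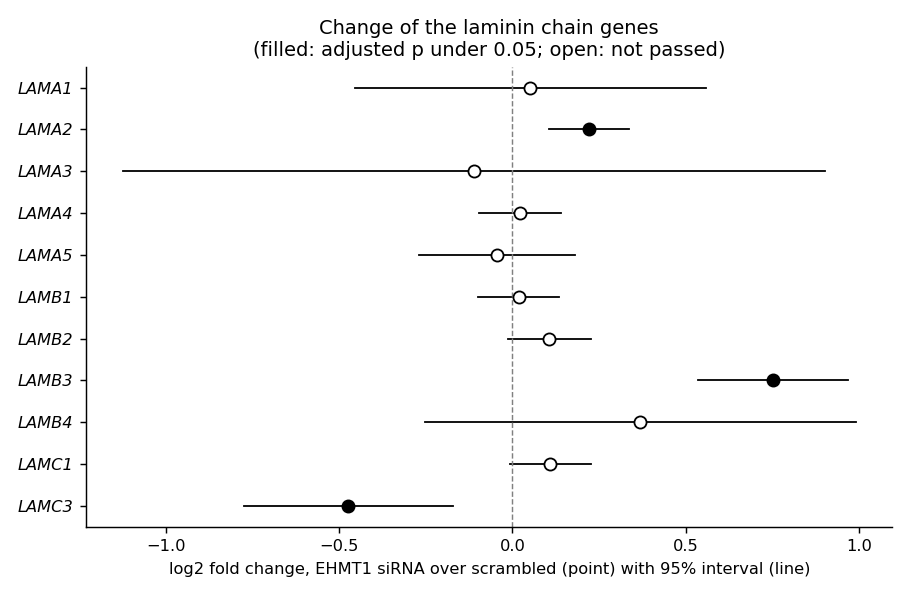
Log2 fold change of 11 laminin chain genes, EHMT1 siRNA over scrambled, with the 95% interval as a line; filled points passed the test and open points did not. LAMB3 at 0.75 and LAMA2 at 0.22 are filled, LAMB1 and LAMA4 lie at 0.02, and the widest interval is that of LAMA3.

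Outside the 9, LAMC3 and LAMB4 were laminin chain genes at low levels. LAMC3 (ENSG00000050555), a gamma chain of nerve and retina, lay at 4.31, 3.30 and 3.71 CPM in EHMT1 siRNA libraries, against 4.42, 5.78 and 5.56 CPM in scrambled libraries. It fell, with a log2 fold change of -0.47 (SE 0.14, edgeR adjusted p = 0.0381), and with 1 library left out it still passed only without EHMT1 siRNA replicate 1 or scrambled replicate 1. LAMC3 also missed the threshold by limma-voom (adjusted p = 0.0513) and, by edgeR, in the strand column with most counts (adjusted p = 0.0892). LAMB4, at 0.518 to 1.01 CPM, was at 0.37 and did not pass (edgeR adjusted p = 0.474).

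The makeup of each chain class moved little. As a share of the beta chains per kilobase, LAMB3 held 1.34% ± 0.104 with EHMT1 siRNA and 0.818% ± 0.0733 with scrambled siRNA (SD, n = 3 each). LAMB1 held 86.8% ± 0.258 and 87.9% ± 0.356, and LAMB2 11.9% ± 0.299 and 11.3% ± 0.333, in EHMT1 siRNA and scrambled libraries. The LAMB3 shares of the groups did not overlap, yet LAMB3 stayed a minor chain. Of the alpha chains, LAMA4 held 53.2% ± 0.683 with EHMT1 siRNA and 54.5% ± 1.62 with scrambled siRNA. LAMA2 held 25.8% ± 0.436 with EHMT1 siRNA and 23.1% ± 1.24 with scrambled siRNA, ranges of 25.4% to 26.3% and 22.3% to 24.5% that did not overlap. These shares are descriptions, with no test. They depend on the exon length and the count column used. With the longest coding transcript of each gene LAMA2 held 18.7% and 16.6%, and LAMB3 1.06% and 0.643%, in EHMT1 siRNA and scrambled libraries. In the strand column with most counts LAMA2 held 28.5% and 25.4%, and LAMB3 1.20% and 0.733%. For LAMA2 the 2 strand columns together held 21.1% more counts than the unstranded column.

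**Figure D4:**
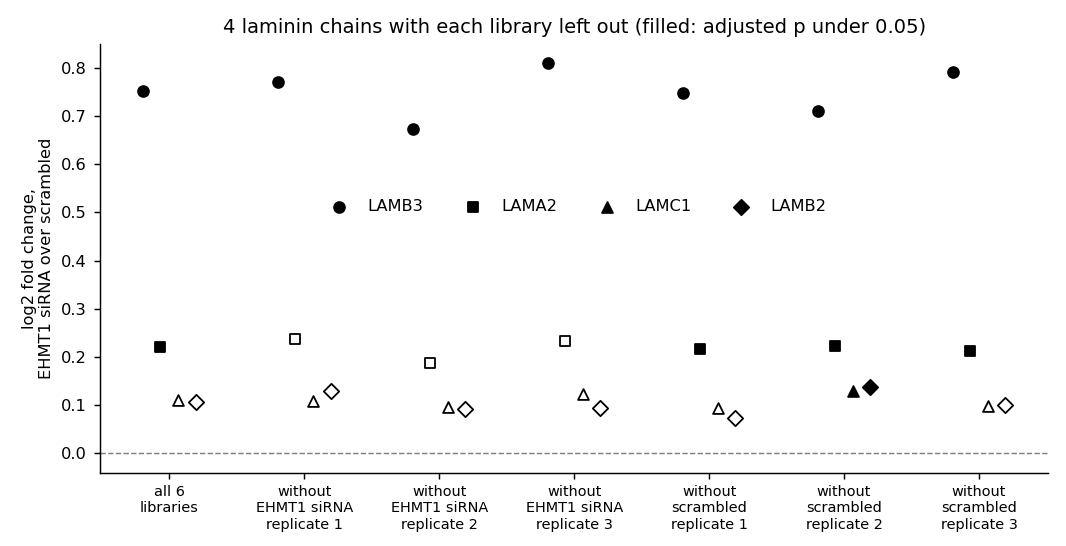
Log2 fold change of LAMB3, LAMA2, LAMC1 and LAMB2 with all 6 libraries and with each library left out; filled points had an adjusted p under 0.05. LAMB3 stays filled throughout at 0.67 to 0.81, LAMA2 is open when an EHMT1 siRNA library is left out, and LAMC1 and LAMB2 are filled only without scrambled replicate 2.

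The 5 protein-coding genes whose pattern over the 6 libraries was closest to that of LAMB3 were GBP1, C8orf48, CPA5, SMTNL1 and TMEM169. Likeness was the root mean square difference of log2 CPM after centring each gene, among 11575 other genes with a mean log2 CPM of at least 1, and it was 0.0876 to 0.101. GBP1, an interferon-induced GTPase, averaged 9.99 CPM with EHMT1 siRNA and 5.82 CPM with scrambled siRNA, a level near that of LAMB3. Its log2 fold change was 0.78 (edgeR adjusted p = 9.1e-05), and those of the other 4 were 0.58 to 0.84. These genes were picked for their likeness to LAMB3 in the same libraries, so changes near that of LAMB3 follow from the choice.

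Antisense RNAs and a pseudogene named after laminin genes stayed low. LAMC1-AS1, LAMA4-AS1 and LAMB2P1 were tested and none passed by edgeR (0 at an unadjusted p under 0.05) or DESeq2, with log2 fold changes of -0.10, -0.17 and 0.49, and LAMA5-AS1 had 1 count or less per library. The netrins, secreted guidance proteins with laminin-like domains, were also low: 4 of 6 were tested, none passed by edgeR (0 at an unadjusted p under 0.05) or DESeq2, and NTN1, the best known, lay at 0.876 to 1.88 CPM, with NTN4 at -0.24, NTN3 at -0.34 and NTNG2 at 0.31 on the log2 scale.

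The receptors that bind laminin moved in both directions. Of 14 tested, 3 rose and 3 fell, beside 5.81% and 6.54% of all genes, and their median log2 fold change was 0.06. Leaving out single libraries gave 2 to 5 that rose and 1 to 3 that fell: 5 rose without scrambled replicate 2, 2 rose without EHMT1 siRNA replicate 1 or 2, 2 fell without EHMT1 siRNA replicate 2 and 1 fell without EHMT1 siRNA replicate 3. ITGA3, the alpha subunit of an integrin that binds laminins with alpha 3 or alpha 5 chains, lay at 64.0, 66.5 and 69.4 CPM in EHMT1 siRNA libraries, against 37.9, 46.0 and 40.1 CPM in scrambled libraries. The groups were far apart, and ITGA3 rose by 0.69 on the log2 scale (SE 0.071, edgeR adjusted p = 1.15e-05). ITGA1, a collagen and laminin receptor subunit, rose by 0.34 and ITGA6, a subunit of laminin-specific integrins, by 0.24 (edgeR adjusted p = 0.00273 and 0.00926), and ITGA6 no longer passed without EHMT1 siRNA replicate 1 or 2. ITGB1, the beta subunit that pairs with these alpha subunits, lay at 283.1, 285.5 and 278.2 CPM in EHMT1 siRNA libraries, against 350.2, 360.6 and 312.2 CPM in scrambled libraries. It was lower in every EHMT1 siRNA library and fell, with a log2 fold change of -0.27 (edgeR adjusted p = 0.00719, and 0.0593 without EHMT1 siRNA replicate 3).

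The syndecans SDC1 and SDC4, cell surface proteoglycans that bind laminin through heparan sulfate, fell, with log2 fold changes of -0.43 and -0.30 (edgeR adjusted p = 0.000442 and 0.0121; SDC4 was named after its value was seen). ITGA7, the laminin receptor subunit of mature muscle, lay at 60.3, 60.0 and 63.6 CPM in EHMT1 siRNA libraries, against 51.6, 58.6 and 52.2 CPM in scrambled libraries. Its groups did not overlap, but the log2 fold change of 0.18 did not pass (edgeR adjusted p = 0.0773). DAG1, which encodes dystroglycan, was at 0.10 (95% interval -0.03 to 0.23). Of the 18 genes that build the sugar on dystroglycan to which laminin binds, edgeR called none, against 12.4% of all genes; 1 rose and 3 fell at an unadjusted p under 0.05. The smallest adjusted p was that of POMGNT1 at 0.18 (edgeR adjusted p = 0.0583), which DESeq2 called (adjusted p = 0.0467) as did edgeR in the strand column with most counts (adjusted p = 0.0383) and without scrambled replicate 2 (adjusted p = 0.00116). B3GALNT2 at -0.17 and DPM1 at -0.13 did not pass in any setting.

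The dystrophin complex joins dystroglycan to the cytoskeleton. UTRN, which encodes the dystrophin relative utrophin, averaged 257.4 ± 11.8 CPM with EHMT1 siRNA and 210.7 ± 15.6 CPM with scrambled siRNA (SD, n = 3 each). It rose by 0.29 on the log2 scale (edgeR adjusted p = 0.00615, and 0.0724 without EHMT1 siRNA replicate 2). DMD at -0.18 and SGCA at 0.18 did not pass (edgeR adjusted p = 0.0569 and 0.129).

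Other basement membrane components were for the most part not called: of 17 tested among 21, 2 rose and 1 fell, with a median log2 fold change of -0.06. That count of 3 is near the 12.4% called among all genes. With 1 library left out 1 to 4 rose, 4 of them without scrambled replicate 2 and 1 in each of the other settings. Between 0 and 2 fell, 0 without EHMT1 siRNA replicate 1 or 2 and 2 without scrambled replicate 1. SPARC, a collagen-binding matrix protein, averaged 1446 ± 4.04 CPM with EHMT1 siRNA and 1171 ± 28.6 CPM with scrambled siRNA (SD, n = 3 each) and rose by 0.31 on the log2 scale (edgeR adjusted p = 0.00142). COL15A1, a collagen of the muscle basement membrane, fell, at -0.31 (edgeR adjusted p = 0.00996; lost without EHMT1 siRNA replicate 1 or 2). COL4A5 rose by 1.15 at 0.306 to 1.33 CPM (edgeR adjusted p = 0.0439), and with 1 library left out it still passed only without scrambled replicate 2. Nidogen NID1 and perlecan HSPG2, which link laminin to collagen IV, did not pass, at -0.10 and 0.09 (edgeR adjusted p = 0.356 and 0.522). The collagen IV chain COL4A1 was at 0.17 and did not pass in the main setting (edgeR adjusted p = 0.0956). It passed in 4 of 16 alternatives, 1 of them with 1 library left out (edgeR adjusted p = 0.000295).

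**Figure D5:**
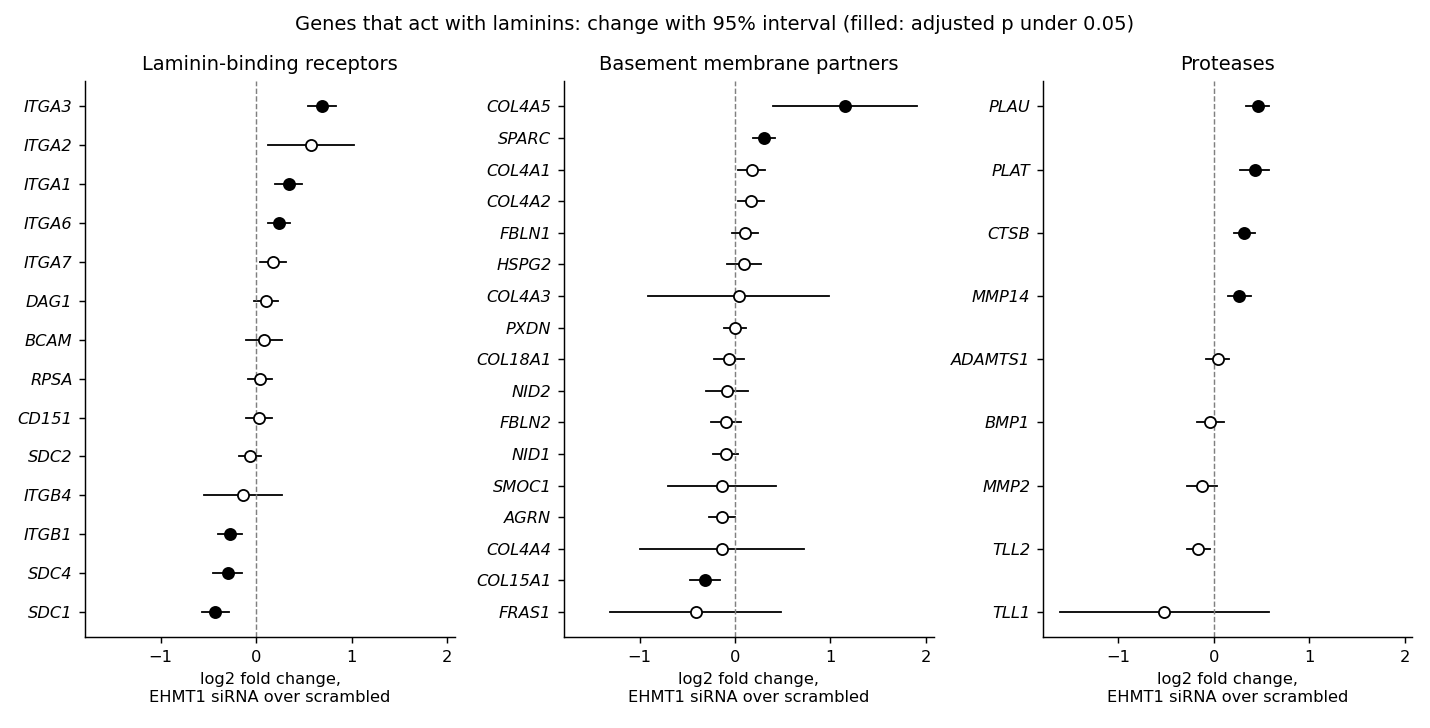
Log2 fold change, EHMT1 siRNA over scrambled, of tested genes that act with laminins, in 3 panels, with 95% intervals as lines; filled points passed the test. Receptors are filled at both ends, from ITGA3 at 0.69 to SDC1 at -0.43, while 4 of the 9 tested proteases are filled on the positive side.

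Of proteases that process laminin or basement membrane, 9 of 12 were tested and 4 rose, beside 5.81% of all genes. None fell by edgeR in the main setting (1 at an unadjusted p under 0.05), and 1 fell by DESeq2, TLL2, a tolloid protease at -0.17 named after its value was seen. By edgeR with the replicate block or without scrambled replicate 2, and by limma-voom with weights per group, 1 protease also fell. Those that rose were PLAU, the urokinase that activates plasminogen, at 0.46, PLAT, the tissue plasminogen activator, at 0.43, CTSB, a lysosomal protease, at 0.32, and MMP14, a membrane metalloprotease, at 0.27 (edgeR adjusted p at most 0.00600). MMP14 was not called without EHMT1 siRNA replicate 2 (edgeR adjusted p = 0.0573).

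Because LAMB3 is best known from epithelium, markers of other cell types were read beside it. Of 10 epithelial markers, 8 lay under 1 CPM in every library, KRT14 and KRT19 had no count at all, and CDH1, TP63 and KRT5 had at most 0.0427 CPM. Their summed level was 75.7 to 80.6 CPM with EHMT1 siRNA and 70.7 to 81.7 CPM with scrambled siRNA, nearly all of it KRT18 and KRT8. None of the 3 tested was called by edgeR in the main setting (1 at an unadjusted p under 0.05) or DESeq2. KRT8, at 7.40 to 8.09 CPM with EHMT1 siRNA and 6.03 to 6.50 CPM with scrambled siRNA, was at 0.30 (edgeR adjusted p = 0.0608). By edgeR, 1 epithelial marker rose with upper quartile factors, with the filter of 1 CPM in at least 3 libraries, and with the replicate block. Among partners of the skin-anchoring trimer, COL17A1 lay at 0 to 0.214 CPM, and of PLEC at 0.15, COL7A1 at 0.17 and DST at 0.03 none passed by edgeR (1 at an unadjusted p under 0.05) or DESeq2, while 2 passed without scrambled replicate 2, PLEC and COL7A1. Endothelial markers summed to 31.6 to 34.7 CPM with EHMT1 siRNA and 24.2 to 25.5 CPM with scrambled siRNA. Of 5 tested, 2 rose, beside 5.81% of all genes: TIE1 and CD34, by 1.18 and 1.12 on the log2 scale. TEK, the most abundant of these markers at 16.1 to 17.9 CPM, was at 0.01 and did not pass, nor did CLDN5 at 0.30 and VWF at 0.07. PECAM1, CDH5 and KDR lay at 0.237 CPM or less in every library. The Schwann cell markers SOX10 and S100B lay at 0.0942 CPM or less in every library. Fibroblast markers summed to 412.5 to 428.1 CPM with EHMT1 siRNA and 395.6 to 461.1 CPM with scrambled siRNA, with COL1A2 at 0.54 and THY1 at -0.40, and DCN, PDGFRA and FAP at 0.306 CPM or less. Myoblast markers summed to 1364 to 1428 CPM with EHMT1 siRNA and 1217 to 1390 CPM with scrambled siRNA. Of 8 tested, 2 rose, beside 5.81% of all genes: PAX7 by 0.28 and TNNT2 by 0.62. The other 6 did not pass. With 1 library left out, 0 rose without EHMT1 siRNA replicate 3, 1 without EHMT1 siRNA replicate 1, and 3 without scrambled replicate 2 or 3. Without scrambled replicate 1, 2 rose and 1 fell. The part of these markers in the laminin changes was not tested.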

How the data were processed

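The authors deposited raw counts per gene, 1 file per library, with an unstranded column and 1 column per strand, in the layout of STAR's gene count table. Per the labels' protocols, the NEBNext Ultra kit was used on mRNA selected by its poly-A tail. The build hg19 and the tools STAR 2.5, HTSeq 0.6.1, bcl2fastq, CASAVA and DESeq2 are named in the submitters' processing notes; the annotation version is not given in the sources used here. Reads not assigned to a single gene in the unstranded column, 20.0% to 21.2% per library, stayed out of the main analysis. They include reads that overlapped more than 1 gene, 9.94% to 10.3% per library. Gene names came from a table that matched 61399 of 61552 identifiers, and exon lengths, gene types and overlaps from GENCODE 29 (58352 matched).

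The unstranded counts were analysed with edgeR 4.0.16 (R 4.3.3). Genes were kept by filterByExpr with a minimum count of 10, scaled by TMM, and tested by quasi-likelihood with robust fitting and group as the sole term. P-values were adjusted by Benjamini-Hochberg over every gene tested, at a threshold of 0.05. The SE is the size of the log2 fold change over the root of its F value, and 95% intervals use the fit's degrees of freedom. The fit takes 1 spread for both groups. A count of 0 allows a level of up to 3 counts, 0.0635 to 0.0738 CPM depending on the library; this covers counting error only. The script was tested on simulated data. Alternatives were RLE and upper quartile factors, DESeq2 1.42.0, limma-voom 3.58.1 with or without weights per group, a stricter filter of 1 CPM in at least 3 libraries or none, a replicate block, each strand column, a threshold of 0.01, each library left out, and, for shares, another gene length.

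Whether replicates came from separate cultures is not in the labels, so p-values reflect the spread among these libraries alone, which may be technical. The unstranded column does not separate a gene from its antisense partner; the strand columns, used as alternatives, do so for most reads. The chains, lists and naming rule were chosen with earlier results of these data known. All 9 chains were named; of each list, every tested gene where 6 or fewer, otherwise the 4 with the smallest adjusted p, plus ITGA3, ITGA6, ITGA7, ITGB1, DAG1, NID1, HSPG2 and COL4A1; and the 5 genes most like the chain with the smallest p. A few genes that this rule picks are not reported here.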

Additional observations from a re-analysis of the deposited data

How the results depend on the processing

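With 1 library left out, 452 to 1625 genes rose and 484 to 1923 fell, against 1084 and 1220 with all 6, with the lowest counts without EHMT1 siRNA replicate 2 and the highest without scrambled replicate 2. The counts moved furthest in the strand column that holds few counts, where 90 genes rose and 87 fell, and at an adjusted p under 0.01 there were 492 and 525. Called laminin chains that rose numbered 1 to 4 with 1 library left out, 0 in that strand column and 1 at 0.01, against 2 with all 6; none fell in any setting. LAMB3 passed in 15 of 16 alternatives, with log2 fold changes of 0.67 to 0.81, and did not in the sparse strand column (0.77, adjusted p = 0.214, edgeR). LAMA2 passed in 12 of 16, at 0.21 to 0.24, and was at 0.19 to 0.24 in the other 4. EHMT1 passed in all 16. The same-numbered libraries of the groups correlated weakly, by 0.0555, 0.0154 and 0.0250, in their deviations from the group means. Still, 5 of 6 libraries correlated best with their own number. The labels give only the number, so whether these libraries were paired is not known. With the replicate block 1474 genes rose and 1632 fell, and the block changed no laminin chain's call. Low counts limit LAMA3 and, less so, LAMA1. The causes of these dependencies were not tested.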
